A study of Mus musculus with 4 samples.

Results

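The genes described here are 38 genes of synaptic vesicles and regulated exocytosis, taken by exact gene symbol from 4 single-cell RNA libraries of mouse small cell lung cancer models. They cover SNARE proteins, calcium sensors, complexins, priming and docking factors, vesicle proteins, endocytic proteins and calcium channel subunits. All 38 were listed in every library, among 32285 features in the lung tumour libraries and 31053 in the allograft libraries. The levels were measured in the tumour cells of each library and in the non-tumour cells beside them.

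RPR2 and CRPR2 are lung tumours of a mouse model in which small cell lung cancer is induced by gene knockout. In this field RPR2 stands for a model lacking Rb1, Trp53 and Rbl2; CRPR2 lacks Cracd as well, which codes for an actin capping protein inhibitor. The labels do not spell these names out. The other pair came from allografts of preSC, a mouse precancerous neuroendocrine cell line, with the genotypes WT and CracdKO. The labels give no strain, age, sex, host or Cre driver, and do not say whether the knockout line was 1 clone or whether tumours were pooled. There was 1 library per group, so no difference below carries a test or a spread between animals, and intervals (95%, exact) cover counting error only.

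In neurons, a vesicle docks at the membrane, is primed by Unc13 and Cadps proteins, and fuses when synaptotagmins bind calcium and the SNARE proteins of vesicle and membrane zip together. Neuroendocrine cells of the airway, and the tumours that arise from them, use much of the same machinery to release peptide and amine granules, and synaptophysin is a standard diagnostic marker of small cell lung cancer. Many neuronal genes carry the RE1 element, bound by the repressor REST, which is low in neuroendocrine cells.

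Promoter sequences were at hand for 29 of the 38 genes (RefSeq, GRCm38.p6, windows of 250 bases before to 50 bases after the start site). Those of Cacna1a, Rims2, Sez6l2, Snap25, Syt13, Syt4, Syt5, Syt7 and Vamp2 were not used here. The windows were searched on both strands for the left part of the RE1 element, spelled TCAGCAC. A second search used its right part, spelled ACAGCGC. A further search used the core of the cyclic AMP response element, spelled TGACG. The left part was present in 3 of 29 genes (10.3%; Cacna1c, Syn1 and Unc13a), against 5.80% of all 27025 genes. The right part was also present in 3 of 29 (10.3%; Cacna1d, Sv2c and Unc13a), against 3.91% of all genes. The cyclic AMP core stood in 8 of 29 (27.6%), against 23.0% of all genes. The median GC content of the 40 member windows was 59%, against 52.7% over all 32851 windows. A match is a description of letters, not a binding site. The stretches below are shown because they hold the matches in genes whose levels are followed later. Capitals mark the searched letters on either strand; in Syn1 the cyclic AMP core matches on both strands, which overlap and read as a single run.
Syn1, chrX:20920919-20921168, minus strand, 250 bases before the start site: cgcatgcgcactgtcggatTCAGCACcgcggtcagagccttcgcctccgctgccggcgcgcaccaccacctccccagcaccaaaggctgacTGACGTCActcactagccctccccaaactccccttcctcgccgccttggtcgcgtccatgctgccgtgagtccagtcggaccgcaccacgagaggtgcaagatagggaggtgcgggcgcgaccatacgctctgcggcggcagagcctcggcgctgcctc
Stx1a, chr5:135023232-135023481, plus strand, 250 bases before the start site: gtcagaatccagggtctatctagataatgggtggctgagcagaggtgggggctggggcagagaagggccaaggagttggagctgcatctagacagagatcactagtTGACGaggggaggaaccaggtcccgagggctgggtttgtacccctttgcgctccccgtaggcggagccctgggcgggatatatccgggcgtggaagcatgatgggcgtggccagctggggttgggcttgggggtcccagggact
Sv2c, chr13:96132578-96132827, minus strand, 250 bases before the start site: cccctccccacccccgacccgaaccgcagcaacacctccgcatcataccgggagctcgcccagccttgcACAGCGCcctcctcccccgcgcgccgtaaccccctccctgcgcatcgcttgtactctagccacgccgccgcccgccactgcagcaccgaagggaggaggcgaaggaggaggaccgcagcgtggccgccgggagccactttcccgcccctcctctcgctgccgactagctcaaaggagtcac
Unc13a, chr8:71671724-71671753, minus strand, 30 bases inside the transcribed part: gGCGCTGTccgcgcccccgGTGCTGAagcg
In Unc13a both RE1 parts lay on the reverse strand, 11 bases apart.

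The libraries held 9215 to 18559 barcodes and 42592323 to 110576113 unique molecular identifiers (UMIs), and any pair of them shared 36 to 79 barcodes. RPR2 gave 3054 tumour cells, CRPR2 6600, preSC_WT 13580 and preSC_CracdKO 13545, with median depths of 3370.5 to 6060 UMIs. Named non-tumour cells numbered 5814, 3704, 4425 and 327 in the same order, so the preSC_CracdKO non-tumour level is the least precise. The RNA of Cracd (listed as C530008M17Rik) was higher in the allograft library labelled as the knockout. Its level was 6.45 CPM (UMIs of a gene per 1e+06 UMIs of its class) in tumour cells of preSC_WT and 84.3 CPM in those of preSC_CracdKO, a ratio of 13.1. In the lung pair it was 31.6 CPM in RPR2 and 23.5 CPM in CRPR2. The part of labels, clones and genotype in this was not tested. The allografts are therefore called the library labelled preSC_WT and the library labelled preSC_CracdKO, or by those labels for short. The epithelial markers Epcam and Krt8 also separated the allografts, at 1722 and 1989 CPM in preSC_WT against 37.7 and 14.4 CPM in preSC_CracdKO. The neuroendocrine markers Insm1 and Chga were at 107 CPM or more and 143 CPM or more in all 4 tumour classes. Insm1 was also lower in preSC_CracdKO (107 CPM) than in preSC_WT (253 CPM). These markers were among those that named the tumour class, so their presence in it follows in part from the naming. Culture history and genotype cannot be told apart in that pair, and fewer cells of a kind within the tumour class and less RNA per cell cannot either.

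Of the 38 genes, 37 reached 5 CPM in the tumour cells of at least 1 library and 31 did so in all 4. The exception was Rph3a (rabphilin, an effector of RAB3), with 3, 1, 4 and 4 UMIs. Most of the set was higher in tumour cells than in the other cells of the same tumour. The call used here is a 1.5-fold difference, with at least 5 CPM in the class with more. By that call 26 of 37 genes were higher in tumour cells in all 4 libraries, where 14.4% of all 14392 genes were, and none was lower in all 4, where 7.29% of all genes were (21.7% either way). In RPR2, 32 of 35 measured genes were higher in tumour cells and 2 were lower (Syt13 and Vamp1), where 45.2% of all genes were higher, 17.5% lower and 62.7% either way. In CRPR2, 31 of 34 were higher and none lower (all genes 51.8%, 17% and 68.8%). In preSC_WT, 31 of 35 were higher and Cacna1d was lower (all genes 37.2%, 23.4% and 60.5%). In preSC_CracdKO, 29 of 34 were higher, and Vamp1 and Cacna1d were lower (all genes 35.1%, 30.4% and 65.5%). The median log2 ratio of the measured genes was 2.66, 2.15, 1.72 and 1.82, against 0.45, 0.59, 0.33 and 0.14 over all genes. The non-tumour cells differed in kind, so ratios of different libraries do not rank the tumours. T-cell-like cells gave 11346098 of 18259525 non-tumour UMIs in RPR2, and club-cell-like cells gave 7302879 of 14645064 in CRPR2. The members were kept out of the genes used for clustering, but tumour and non-tumour cells come from clusters of the same cells, so these values describe and do not test.

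**Figure D1:**
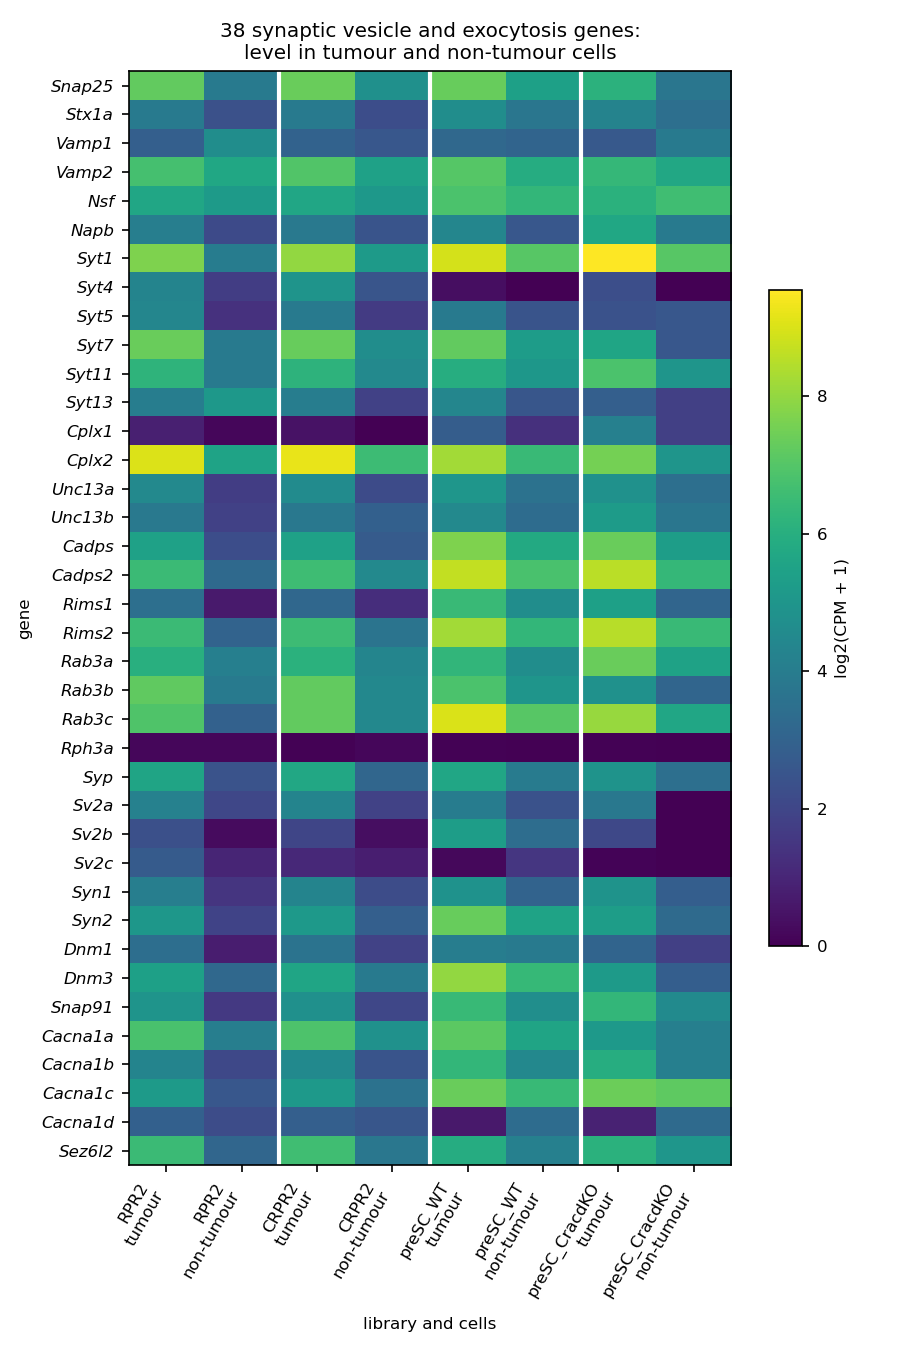
Level of each of the 38 genes as log2(CPM + 1), in color, in the tumour and non-tumour cells of each library (columns); white lines separate libraries. Tumour columns are brighter than their non-tumour neighbours for most rows, with Vamp1, Nsf and Cacna1d as exceptions and Syt13 reversed in RPR2.

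Free RNA can enter droplets of other cells, and Insm1, a neuroendocrine gene that lymphocytes and stroma are not known to make, was read beside the members for that reason. Insm1 was among the markers that named the tumour class and no member was, so its ratio is set in part by the naming. Insm1 was 13.7, 7.17, 3.64 and 4.04 times higher in tumour than in non-tumour cells of RPR2, CRPR2, preSC_WT and preSC_CracdKO. The ratio of the median member was 8.92, 5.74, 3.45 and 3.69. The part of free RNA in any non-tumour level was not tested.

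The SNARE genes give the scale. Snap25, whose product is the membrane SNARE of regulated secretion (chr2:136713453-136782428, GRCm38), was at 152, 165, 158 and 69.7 CPM in tumour cells of RPR2, CRPR2, preSC_WT and preSC_CracdKO, the order kept from here on. Its non-tumour levels were 14.3, 26.4, 42.2 and 12.6 CPM, giving ratios of 10.6, 6.28, 3.74 and 5.54. Snap25 was therefore alike in 3 libraries and lower in preSC_CracdKO, and the lung ratio of CRPR2 to RPR2 was 1.09 (1.04 to 1.14). The allograft ratio of preSC_CracdKO to preSC_WT was 0.441 (0.428 to 0.455), which is 2.27-fold lower, and it was 1.01 when the clusters shared by the allografts were weighted equally, as described further on. Its partner on the membrane, syntaxin 1A (Stx1a), was at 14.1, 14.1, 24.5 and 18.4 CPM, and neither the lung pair nor the allograft pair differed by 1.5-fold (0.995 and 0.749).

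The vesicle SNAREs behaved unlike each other. Vamp2, the main vesicle SNARE of neurons and endocrine cells, was at 106, 123, 130 and 79.9 CPM in tumour cells and at 50.2, 43.4, 59.4 and 51.6 CPM in non-tumour cells, so its ratios of 2.11, 2.82, 2.18 and 1.55 were among the smaller ones. B-cell-like cells of RPR2 held 49.1 CPM of Vamp2, 46.3% of the tumour level, where their Insm1 was at 1.31% of its own. Vamp1, its close relative, was at only 6.40, 7.11, 8.46 and 5.41 CPM in tumour cells and was lower there than in non-tumour cells of RPR2 (24.8 CPM) and preSC_CracdKO (13.8 CPM). Both genes were lower in preSC_CracdKO than in preSC_WT, by 1.62-fold for Vamp2 and 1.56-fold for Vamp1. With shared clusters weighted equally Vamp1 was 1.56-fold higher.

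Disassembly of used SNARE complexes needs the ATPase NSF and its adaptor, the SNAP proteins. Nsf was at 49.2, 49.4, 114 and 68.0 CPM in tumour cells and 35.7, 33.3, 79.9 and 98.2 CPM in non-tumour cells, and in no library did the classes differ by 1.5-fold. It was found in every named class of at least 50 cells in the lung tumours, from 26.7 to 59.7 CPM in RPR2 and from 15.6 to 83.1 CPM in CRPR2. Napb, the adaptor form found mainly in the nervous system, was instead higher in tumour cells by 4.73, 3.01, 3.94 and 3.69 times. Its tumour levels were 16.1, 13.5, 20.0 and 51.0 CPM, so preSC_CracdKO lay above the other 3 and 2.55-fold (2.41 to 2.70) above preSC_WT, while Nsf was 1.67-fold lower there.

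Synaptotagmins, the calcium sensors, did not share a pattern. Syt1, the fast sensor of neurotransmitter release, was at 210, 255, 487 and 746 CPM, against 15.3, 35.6, 134 and 135 CPM in non-tumour cells. Its ratio was 1.22 (1.17 to 1.26) in the lung pair and 1.53 (1.51 to 1.55) in the allograft pair, where equal weight of shared clusters gave 3.97. Syt7, the slow, high-affinity sensor of endocrine granules, went the other way in the allografts. It was at 166, 161, 150 and 47.4 CPM, 3.17-fold lower (3.06 to 3.29) in preSC_CracdKO, with a lung ratio of 0.972. Syt1 thus stood highest and Syt7 lowest in the same library.

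Syt5, a sensor of dense-core vesicles, was at 19.8, 14.4, 13.8 and 4.26 CPM, and Syt13, a family member that does not bind calcium, at 15.7, 15.6, 19.9 and 6.37 CPM. Both were lower in preSC_CracdKO than in preSC_WT, Syt5 by 3.24-fold and Syt13 by 3.13-fold. Syt11, which also does not bind calcium and is known to restrain vesicle retrieval, was at 73.8, 71.2, 60.1 and 115 CPM and was 1.92-fold (1.85 to 1.99) higher in preSC_CracdKO. Its non-tumour levels of 14.2, 21.5, 31.9 and 30.2 CPM included T-cell-like cells of preSC_WT at 44.1 CPM.

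Syt4, a calcium-independent family member induced by activity in neurons, was the only member counted as higher in CRPR2 than in RPR2. Its tumour level was 18.6 CPM in RPR2 (415 UMIs) and 30.04 CPM in CRPR2 (803 UMIs), a ratio of 1.62 (1.43 to 1.83). The Syt4 level was higher in CRPR2 in each of the 8 tumour clusters with at least 50 cells of both libraries. These levels ran from 7.18 to 37.5 CPM in RPR2 and from 13.9 to 51.9 CPM in CRPR2, with the largest ratios in cluster 1 (7.18 against 19.5 CPM) and cluster 7 (11.0 against 26.9 CPM). The clusters divide the UMIs that gave the ratio above, so they are not replicates and add no support. In the allografts Syt4 was nearly absent, at 0.264 CPM in preSC_WT and 3.94 CPM in preSC_CracdKO. Counting the unnamed CRPR2 cells described further on as tumour cells brought the lung ratio to 1.21.

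Complexins, which clamp and then promote SNARE zippering, were split between models. Cplx2 was at 530, 592, 301 and 189 CPM, and Cplx1, the form of fast synapses, at 0.806, 0.374, 6.07 and 16.8 CPM. Both lung tumours therefore held Cplx2 with almost no Cplx1. Between the allografts Cplx2 was 1.60-fold lower and Cplx1 2.77-fold higher in preSC_CracdKO. With shared clusters weighted equally the ratios were 0.999 and 0.859.

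Of the priming factors, Unc13a (Munc13-1), the essential primer at synapses, was at 21.4, 23.1, 31.5 and 27.3 CPM, and neither pair differed by 1.5-fold (1.08 and 0.867). Unc13b (Munc13-2) was at 13.5, 13.3, 21.7 and 36.3 CPM and was 1.67-fold (1.58 to 1.78) higher in preSC_CracdKO, or 7.65-fold with equal weight of shared clusters. Cadps and Cadps2 (CAPS1 and CAPS2), primers of dense-core granules, were at 42.9, 42.6, 209 and 165 CPM and at 91.0, 94.2, 405 and 379 CPM. They differed little within each pair (lung 0.994 and 1.04, allograft 0.790 and 0.936) but both allografts exceeded both lung tumours, by at least 3.84-fold for Cadps and 4.02-fold for Cadps2.

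RAB3 proteins tether vesicles and bind the RIM scaffolds of the release site, and here the 3 genes of the family parted. Rab3a was at 63.5, 67.7, 77.6 and 164 CPM, 2.12-fold (2.06 to 2.18) higher in preSC_CracdKO than in preSC_WT. Rab3b was at 147, 151, 115 and 27.4 CPM, 4.18-fold lower there. Rab3c was at 119, 152, 517 and 269 CPM, 1.92-fold lower. In the lung pair the ratios were 1.07, 1.03 and 1.27. Of the scaffolds, Rims1 was at 10.3, 8.19, 87.8 and 42.0 CPM and Rims2 at 89.4, 91.9, 296 and 370 CPM. Rims1 was 2.09-fold lower in preSC_CracdKO, and Rims2 differed by less than 1.5-fold (1.25). With shared clusters weighted equally the ratio was 1.19 for Rab3c and 1.15 for Rims1.

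Among vesicle proteins, synaptophysin (Syp) was at 46.7, 51.4, 49.7 and 29.3 CPM, 10.5, 6.55, 3.36 and 2.91 times the non-tumour level. The allograft ratio of Syp was 0.589 (0.561 to 0.620). The SV2 glycoproteins differed from each other. Sv2a was at 17.5, 18.9, 15.2 and 13.03 CPM. It was at 0 UMIs in non-tumour cells of preSC_CracdKO, so its tumour level there was at least 3.45-fold higher, with the bound taken at 3 UMIs. Sv2b was at 3.98, 2.96, 39.1 and 3.20 CPM, 12.2-fold lower (10.8 to 13.9) in preSC_CracdKO than in preSC_WT, the largest allograft difference of any measured member.

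Sv2c was the only member counted as lower in CRPR2. It was at 5.68 CPM in RPR2 (127 UMIs) and 1.16 CPM in CRPR2 (31 UMIs), 4.90-fold lower (3.29 to 7.51), and at 0.138 and 0.0687 CPM in the allografts. Sv2c passed the 5 CPM minimum through RPR2 alone and by a small margin, and it is lost from the count at a minimum of 20 CPM. Its level was lower in CRPR2 in each of the 8 shared tumour clusters, which ranged from 3.02 to 8.01 CPM in RPR2 and from 0 to 2.73 CPM in CRPR2. The clusters divide the same few UMIs of the same libraries, so they are not replicates and add no support. Synapsins, which hold vesicles in reserve, were represented by Syn1 at 16.1, 18.6, 27.8 and 29.1 CPM and Syn2 at 32.2, 34.8, 161 and 38.5 CPM. Syn1 did not differ by 1.5-fold in either pair, and Syn2 was 4.19-fold lower (4.03 to 4.35) in preSC_CracdKO.

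Vesicle retrieval uses dynamins and clathrin adaptors. Dnm1, the neuronal dynamin, was at 9.80, 11.5, 15.3 and 7.45 CPM and Dnm3 at 41.9, 47.7, 253 and 35.9 CPM. Dnm3 stood apart in preSC_WT and was 7.06-fold lower (6.80 to 7.34) in preSC_CracdKO, and Dnm1 was 2.06-fold lower. With shared clusters weighted equally Dnm3 was at a ratio of 0.691 and Dnm1 was 3.23-fold higher in preSC_CracdKO. Snap91 (AP180), a clathrin assembly protein of synapses, was at 29.5, 26.5, 86.4 and 78.6 CPM and did not differ by 1.5-fold within either pair (0.899 and 0.910).

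The calcium channel genes code for the pores that trigger release. Cacna1a (P/Q type) was at 111, 117, 139 and 34.3 CPM, 4.04-fold lower (3.88 to 4.21) in preSC_CracdKO. Cacna1b (N type) was at 18.8, 22.4, 79.0 and 61.0 CPM, and Cacna1c (L type) at 35.7, 33.6, 162 and 168 CPM. Neither differed by 1.5-fold within a pair. Cacna1d, the other L-type pore of endocrine cells, was at 6.54, 6.47, 0.567 and 0.904 CPM. In the allografts Cacna1d was lower in tumour than in non-tumour cells, which held 9.31 and 8.81 CPM. Sez6l2, a membrane protein of neuroendocrine cells with a role at synapses, was at 89.2, 97.4, 58.4 and 67.3 CPM and within 1.5-fold in both pairs (1.09 and 1.15).

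**Figure D2:**
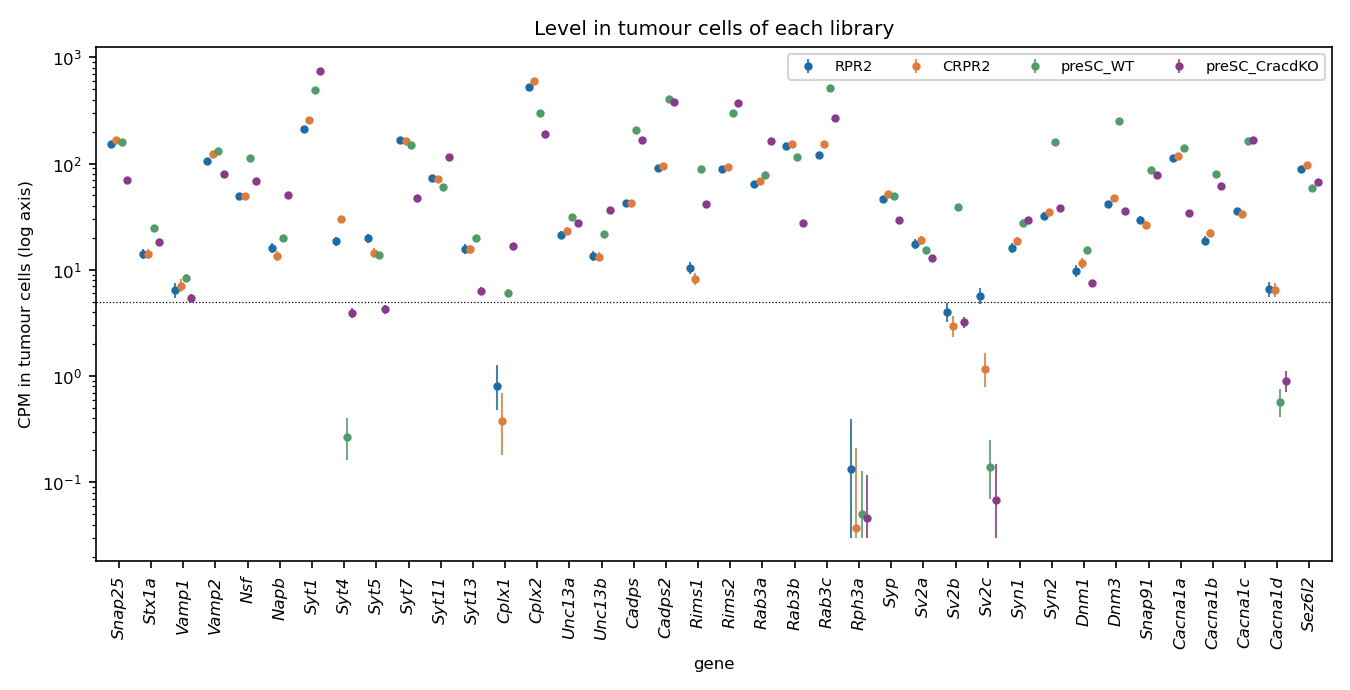
CPM of each of the 38 genes in the tumour cells of the 4 libraries on a log axis, with exact 95% counting intervals (cut at the lower axis limit) and a dotted line at 5 CPM. RPR2 and CRPR2 nearly coincide for most genes, while preSC_CracdKO falls below preSC_WT for genes such as Dnm3 (35.9 against 253) and above it for Rab3a (164 against 77.6).

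Counted over the set, the lung pair was close. Of 35 measured genes, 1 was higher in CRPR2, 1 was lower and 33 lay within 1.5-fold, where 3.16% of all 11257 genes were higher and 3.98% lower (7.14% either way). The median log2 ratio of CRPR2 to RPR2 was 0.07, against -0.03 over all genes. In the allografts 34 genes were measured, and 6 were higher in preSC_CracdKO (Syt1, Syt11, Cplx1, Rab3a, Unc13b and Napb), 17 were lower and 11 lay within 1.5-fold. There 17.5% of all 11743 genes were higher and 27.2% lower (44.6% either way), so a large share of the transcriptome differed by the same measure. The median log2 ratio was -0.48, against -0.13 over all genes. The members did not shift in a single direction, with ratios from 0.0819 (Sv2b) to 2.77 (Cplx1): the fast sensor Syt1, the adaptor Napb and Rab3a were higher while Snap25, Syt7 and Rab3b were lower.

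**Figure D3:**
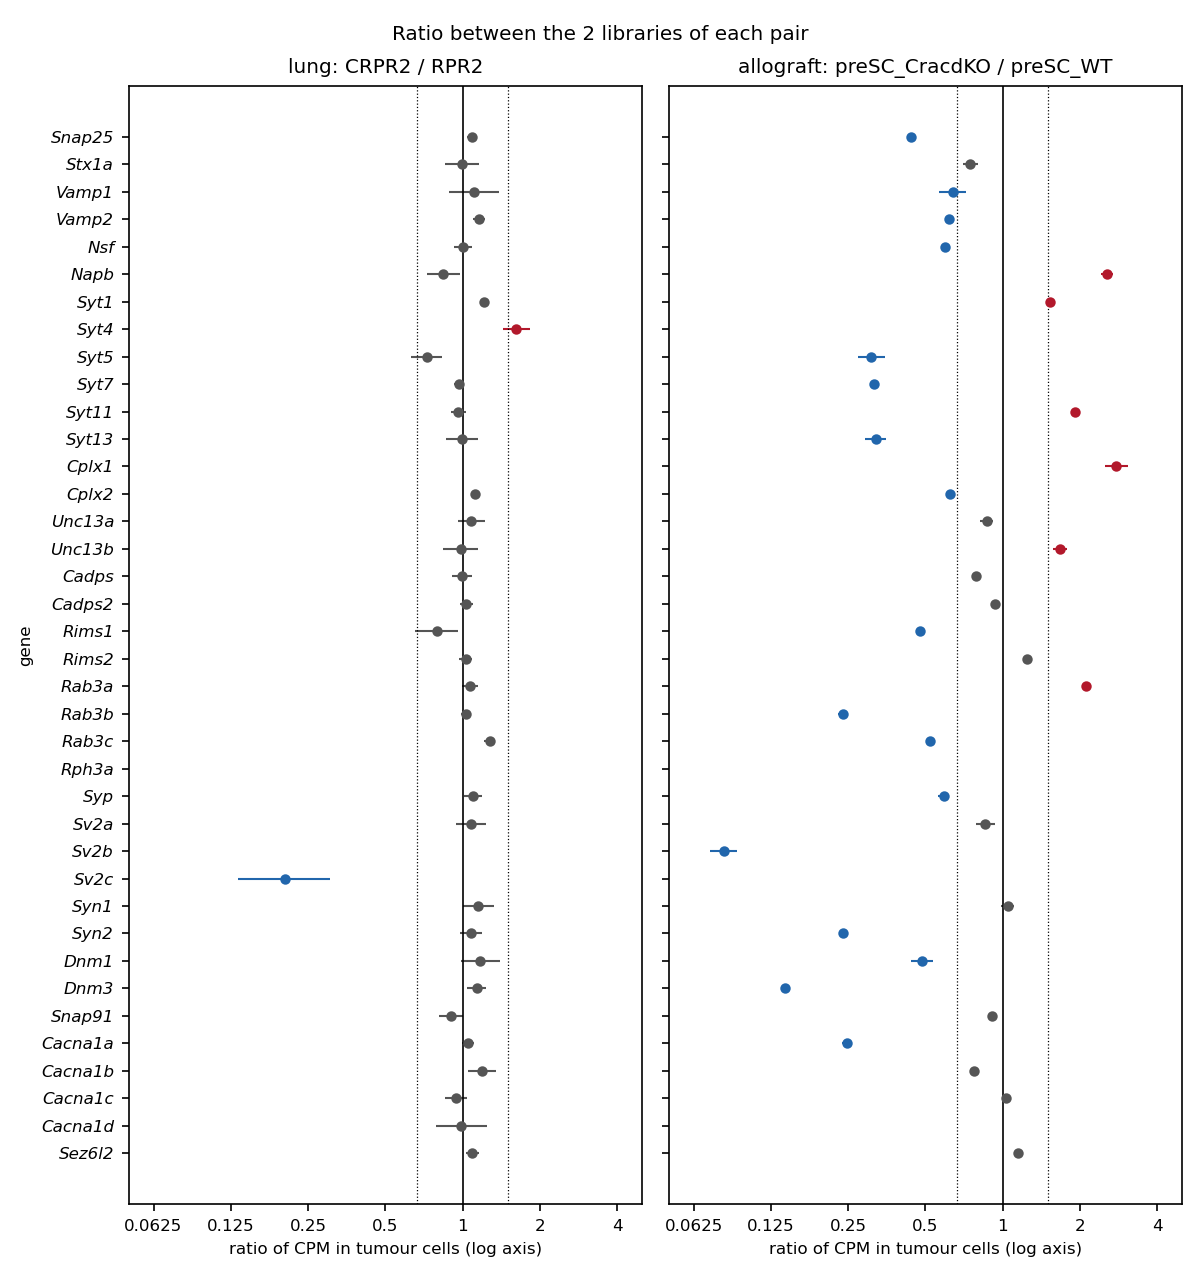
Ratio of tumour-cell CPM between the 2 libraries of each pair on a log axis, with exact 95% counting intervals; dotted lines mark 1.5-fold, red points are counted as higher, blue as lower, and genes under 5 CPM in both libraries have no point. In the left panel all but Syt4 (1.62) and Sv2c (0.204) lie between the lines, and in the right panel 23 of 34 lie outside them.

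Weighting clusters changed the allograft picture. When the 4 tumour clusters with at least 20 cells of both allografts were given equal weight, 15 members were higher and 5 lower in preSC_CracdKO, in place of 6 and 17. Under the same weighting 27.3% of all 11603 measured genes were higher and 23.6% lower, with a median log2 ratio of 0.04. These clusters (7, 8, 10 and 14) held 96, 157, 49 and 84 cells of preSC_WT, against 1703 to 2714 cells of preSC_CracdKO, so that alternative rests on few cells of the first library. Among the 6 genes first counted as higher, the weighted ratio was 7.65 for Unc13b, 3.97 for Syt1, 2.88 for Syt11, 2.49 for Rab3a and 2.02 for Napb, but 0.859 for Cplx1. Of those first counted as lower, 5 changed side: Dnm1 (3.23), Vamp1 (1.56), Rab3c (1.19), Rims1 (1.15) and Snap25 (1.01). Cplx2 (0.999), Nsf (0.956), Vamp2 (0.956), Syp (0.948), Syn2 (0.896), Syt7 (0.820), Syt13 (0.726) and Dnm3 (0.691) no longer met the call. Cacna1a (0.601), Rab3b (0.549), Syt5 (0.451) and Sv2b (0.144) were still counted as lower. In all, 409 of 13580 preSC_WT tumour cells (3.01%) and 20 of 13545 preSC_CracdKO tumour cells (0.148%) lay in clusters at least 90% held by the other library. The 409 cells include those of the 4 clusters weighted above, so leaving such cells out, which gave 6 and 17, removes the cells that the weighting rests on.

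Inside preSC_WT, cluster 6 (544 tumour cells) differed from the 5 larger clusters of the library. It held 64.0 CPM of Cracd RNA (C530008M17Rik), where the larger clusters held 1.85 to 9.86 CPM, with Krt8 at 102 CPM and Epcam at 173 CPM against at least 1057 and 1312 CPM. Its Dnm3 was at 47.5 CPM, against 216 to 287 CPM in the larger clusters and 35.9 CPM in preSC_CracdKO. Cplx1 was at 23.5 CPM against 3.28 to 8.07, Syt11 at 120 against 40.6 to 75.9, Syt5 at 2.23 against 13.2 to 16.5, and Rab3b at 42.4 against 100 to 131 CPM. For these 5 genes the cluster lay on the side of preSC_CracdKO. It did not for Sv2b, at 76.8 CPM against 35.5 to 42.7, or for Unc13b, at 5.31 CPM against 20.5 to 24.1. Isl1, a neuronal factor at 93.2 CPM in preSC_CracdKO tumour cells, was at 0.279 CPM in cluster 6 of preSC_WT, which is 1 UMI. These genes were picked after their values were seen.

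Among the tumour clusters of preSC_CracdKO, Syt1 ranged from 445 CPM (cluster 8) to 1161 CPM (cluster 21), Snap25 from 45.0 CPM (cluster 14) to 114 CPM (cluster 10), and Syt4 from 0.650 CPM to 14.1 CPM, again highest in cluster 21. Cluster 21 also held the most Stmn2, a neuronal microtubule regulator, at 782 CPM against 48.6 to 170 CPM in the other clusters. Cadps2 (515 CPM), Rims2 (447 CPM) and Rab3c (362 CPM) were highest in cluster 9.

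In the lung tumours the clusters with most Mki67, a marker of dividing cells, were lowest for Cplx2, Snap25 and many other members. Clusters 7 and 19 had the highest Mki67 (1002 and 699 CPM in RPR2, 1347 and 1136 CPM in CRPR2). Cplx2 was lowest in cluster 7, at 370 CPM in RPR2 and 324 CPM in CRPR2, and Snap25 lowest in cluster 19, at 86.6 and 89.1 CPM. Their highest values were 705 CPM for Cplx2 and 214 CPM for Snap25 in RPR2, and 728 and 208 CPM in CRPR2. In both libraries cluster 7 or 19 was also lowest for Cacna1a, Cacna1b, Cadps, Dnm1, Dnm3, Napb and Sez6l2. The same held for Rab3a, Rab3b, Rab3c, Syt1, Syt7, Unc13a and Unc13b. Syt11 ran in the opposite sense, with its highest level in cluster 7 (91.7 CPM in RPR2 and 110 CPM in CRPR2). Syp and Vamp1 were highest in cluster 19, at 63.1 and 12.5 CPM in RPR2 and 66.4 and 13.1 CPM in CRPR2. Dnm3 and Syt4 were highest in cluster 5, at 87.0 and 37.5 CPM in RPR2 and 77.9 and 51.9 CPM in CRPR2.

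**Figure D4:**
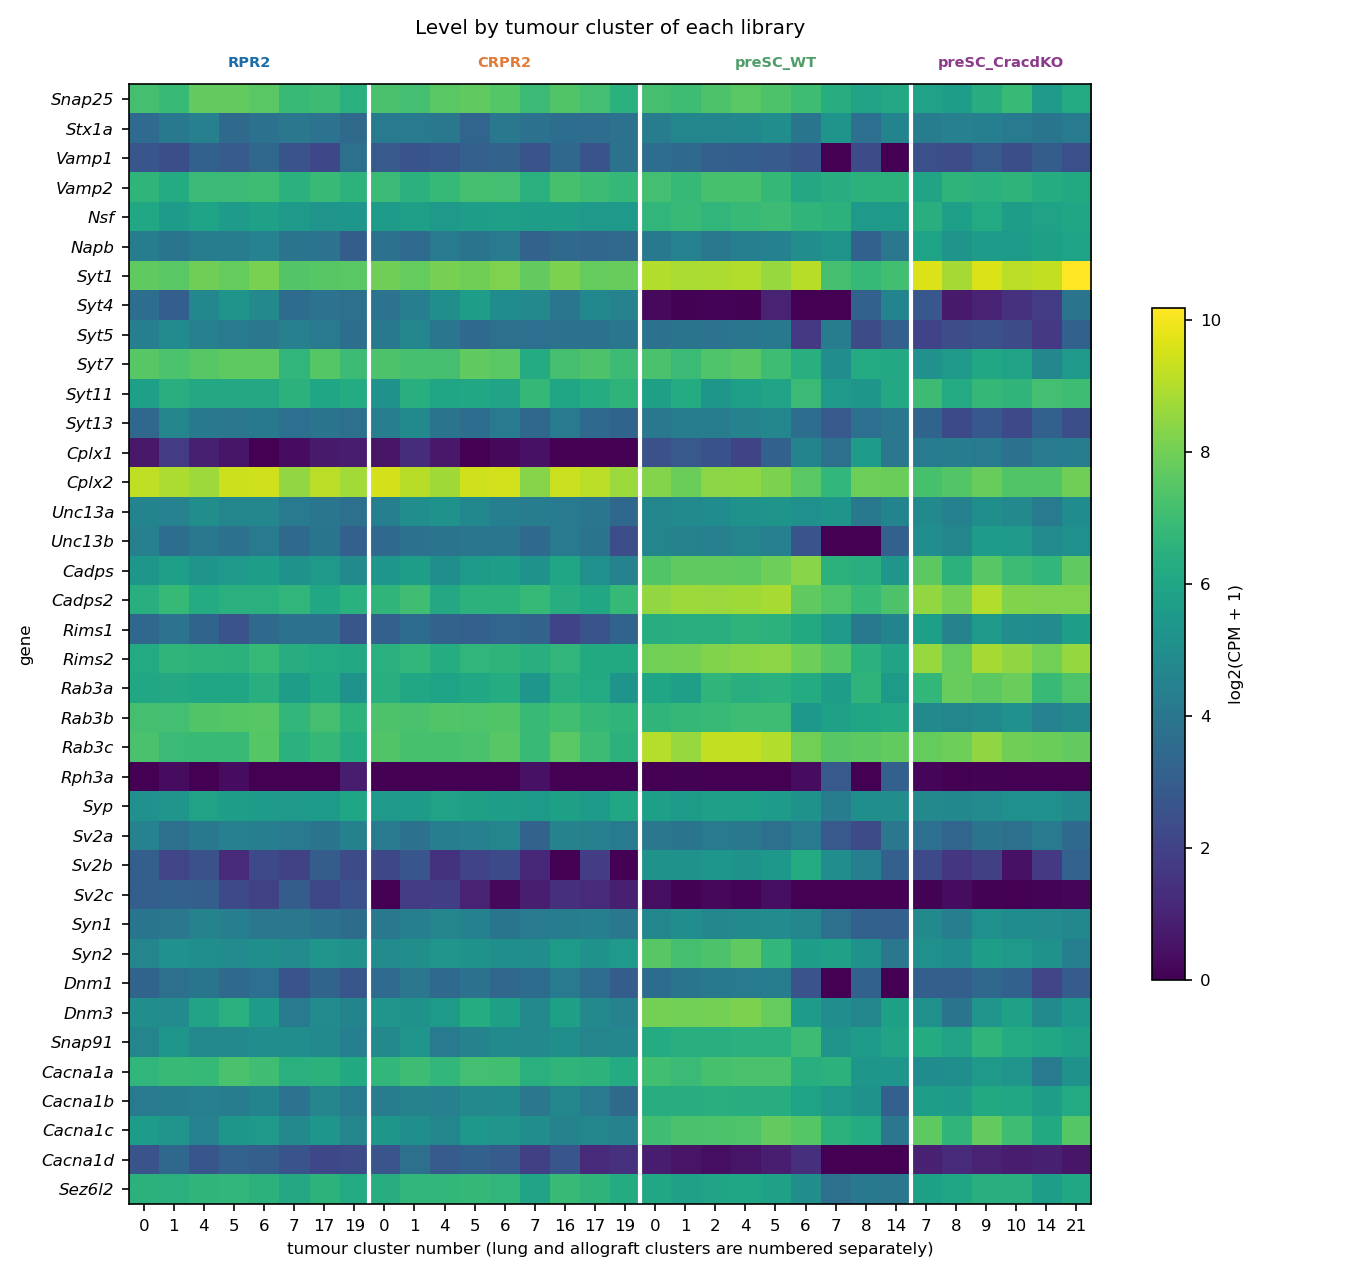
Level of each of the 38 genes as log2(CPM + 1), in color, in every tumour cluster with at least 50 cells of the library (columns, grouped by library); lung and allograft clusters are numbered separately. Cluster 6 of preSC_WT shows less Dnm3 (47.5 CPM) and more Cplx1 (23.5 CPM) than the 5 larger clusters of that library.

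Both allografts lay above both lung tumours by at least 1.5-fold for 11 of 37 genes (Syt1, Cplx1, Rab3c, Rims1, Rims2, Unc13b, Cadps, Cadps2, Cacna1b, Cacna1c and Snap91), where 16.9% of all 12345 genes did. The reverse held for 4 (Syt4, Cplx2, Sv2c and Cacna1d), where 10.2% of all genes did (27.1% either way). The nearest values were 7.53-fold apart for Cplx1, 4.55-fold for Cacna1c, 4.06-fold for Rims1, 3.23-fold for Rims2 and 2.67-fold for Snap91. On the lung side they were 8.38-fold apart for Sv2c, 7.16-fold for Cacna1d, 4.72-fold for Syt4 and 1.76-fold for Cplx2. Sv2c passed the 5 CPM minimum through RPR2 alone. Its nearest values, 1.16 CPM in CRPR2 and 0.138 CPM in preSC_WT, both lay below that minimum. Tissue, tumour model, feature set and the Cell Ranger version in the file headers (6.1.2 for lung, 5.0.0 for allografts) changed together, and cannot be told apart. Without preSC_WT the count on the lung side was 11 in place of 4. Leaving out a library relaxes the rule for every gene, and no share over all genes stands beside this count. It is therefore not a result about the members.

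Gene length moved with that contrast. Of the 11 genes higher in the allografts, 10 spanned over 100 kb, and their median length was 451 kb, from 31.5 kb (Cplx1) to 609 kb (Cacna1c). The 22 genes in neither group had a median of 42.9 kb, and 5 of them spanned over 100 kb. The 4 genes higher in the lung tumours had a median of 95.3 kb, and 2 of them spanned over 100 kb (Sv2c and Cacna1d, 178 and 452 kb). Over all measured genes, 47.0% of those over 100 kb were higher in both allografts, against 6.74% of those under 20 kb. Of the 17 members over 100 kb the share was 58.8%. Higher in both lung tumours were 3.69% of all genes over 100 kb and 11.8% of those 17 members. The 5 long genes in neither group were Dnm3 (496 kb), Cacna1a (252 kb), Sv2b (194 kb), Syn2 (147 kb) and Nsf (132 kb). For Dnm3 and Cacna1a preSC_CracdKO was the library below the lung tumours. For Sv2b preSC_CracdKO (3.20 CPM) lay between the lung tumours (3.98 and 2.96 CPM). For Syn2 and Nsf both allografts lay above both lung tumours, with the nearest values 1.11-fold and 1.38-fold apart. The part of length in the contrast was not tested.

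Some members stood higher in other cells, relative to tumour cells, than Insm1 did. Syt13 was at 49.97 CPM (45.9 to 54.3) in T-cell-like cells of RPR2, 318% of the tumour level, while their Insm1 was at 2.52% of its tumour level. Within those cells the Syt13 level was 88.8 CPM in cluster 8 (2706 cells) and 55.9 CPM in cluster 15 (596 cells), both with high Dntt (993 and 710 CPM) and Rag1 (1559 and 188 CPM), which immature T cells use for receptor rearrangement. Clusters 9 and 18 were small (187 and 90 cells) and had 7 and 5 UMIs of Syt13. Their median depths were 1400 and 5745.5 UMIs per cell, against 1222 in cluster 8 and 5323.5 in cluster 15. No CPM is given for these few UMIs. Cluster 18 also held Dntt at 1145 CPM, so high Dntt did not always come with many Syt13 UMIs. Clusters 11 and 12, with at most 12.6 CPM of Dntt, held 0 and 2.62 CPM of Syt13. The 746 T-cell-like cells of CRPR2 had no Syt13 UMI. Vamp1 was likewise at 76.3 CPM in cluster 8 and 71.4 CPM in cluster 9 of RPR2, 36.0 CPM over its T-cell-like cells and 10.0 CPM over those of CRPR2. With T-cell-like cells left out, the count of members higher in all 4 libraries was 26, of which 25 were among those counted with them; Syt13 joined and Vamp2 dropped out.

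Stroma held a further group. Cacna1c, the channel of smooth muscle, was at 457 CPM (410 to 508) in pericyte- or smooth-muscle-like cells of preSC_WT, 282% of the tumour level, and at 32.0 CPM in fibroblast-like cells of CRPR2. Dnm1 was at 56.8 CPM in fibroblast-like cells of preSC_WT, 371% of its tumour level, and at 13.5 CPM in those of CRPR2. Unc13b was at 37.4 CPM and Dnm3 at 163 CPM in endothelial-like cells of preSC_WT, and Unc13b was at 11.3 and 11.5 CPM in club-cell-like cells of RPR2 and CRPR2. Cacna1d was at 23.4 CPM in macrophage-like cells of preSC_WT and 16.3 CPM in those of CRPR2, and at 13.5 and 12.1 CPM in B-cell-like cells of RPR2 and CRPR2. In each of these classes the named gene stood at a larger share of its tumour level than Insm1, which was at 37.5% or less.

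A cluster of 494 CRPR2 cells without a name (median 13336 UMIs; Krt8 2291 CPM, Vim 3028 CPM, Insm1 5.73 CPM, which is 2.94% of the tumour level) split the set. Insm1 was among the markers whose level left these cells without a name. Several release genes were near the Insm1 share or below it: Syt1 at 1.29% of the tumour level, Syp at 1.44%, Cplx2 at 1.59%, Snap25 at 2.05% and Syt7 at 3.09%. Syt13 stood at 70.7% (11.0 CPM), Unc13b at 57.3% (7.64 CPM), Unc13a at 43.1% (9.97 CPM), Nsf at 38.2%, Syt11 at 26.5% and Rab3a at 26.3%. With these cells counted as tumour, the CRPR2 count became 0 higher and 4 lower, given here without the share over all genes.

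Single tumour cells carried few of these transcripts at equal depth. Each cell was thinned at random to 1000 UMIs, which left out 87, 402, 779 and 175 shallower tumour cells. At that depth 14.2% of RPR2 tumour cells, 14.4% of CRPR2, 14.2% of preSC_WT and 6.57% of preSC_CracdKO had a Snap25 UMI. Without thinning the shares were 55.4%, 41.3%, 49.6% and 31.1%. The share with Syt1 was 17.5%, 21.2%, 35.3% and 44.8%, and that with Cplx2 was 38.2%, 42.7%, 25.5% and 15.7%. B-cell-like cells, which are not known to make Snap25, gave it in 0.259% of 386 cells of RPR2 (median unthinned depth 2295 UMIs), 0.290% of 689 of CRPR2 (1371 UMIs) and 4.62% of 346 of preSC_WT (863 UMIs, B- or plasma-cell-like). In preSC_CracdKO it was 0 of 20 (exact 95% upper limit 16.8%).

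Counted per thinned cell, a tumour cell showed a mean of 2.06, 2.29, 3.59 and 2.73 of the 38 genes. None was seen in 12.3%, 9.78%, 3.48% and 7.32% of tumour cells, and 5 or more in 5.83%, 7.65%, 29.6% and 14.7%. B-cell-like cells had means of 0.199, 0.208, 0.899 and 0.450. Those means include members found widely outside the tumour cells: B-cell-like cells gave Nsf in 7.77% and Vamp2 in 4.92% of cells of RPR2, and each in 4.64% of CRPR2. The order of the libraries follows their summed level: 2.33, 2.62, 4.21 and 3.27 member UMIs per thinned tumour cell.

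**Figure D5:**
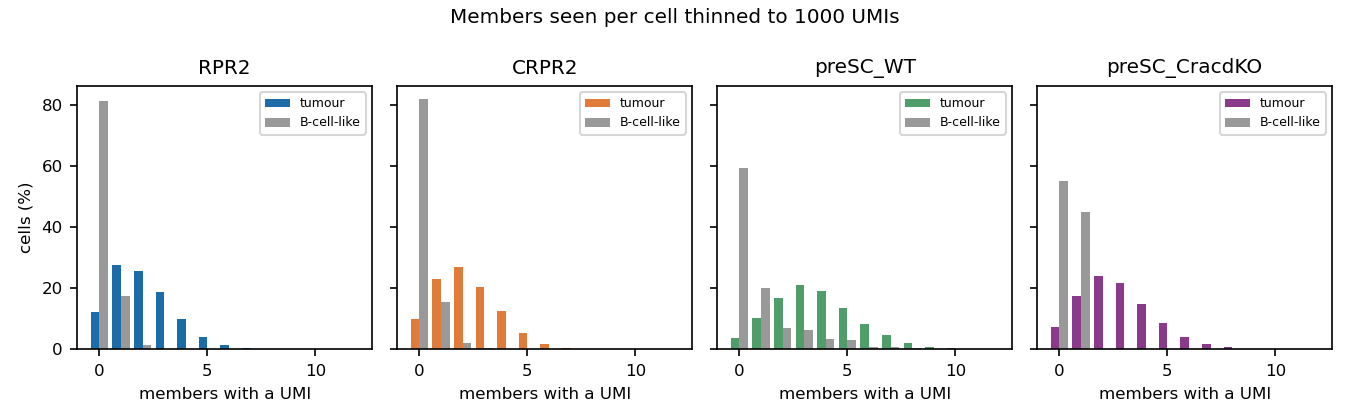
Share of cells (%) by number of the 38 genes with a UMI after thinning to 1000 UMIs, for tumour cells (colored) and B-cell-like cells (grey; B- or plasma-cell-like in the allografts), 1 panel per library. Tumour cells peak at 1 to 3 genes, and 81.3% and 82.1% of B-cell-like cells of RPR2 and CRPR2 show none.

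The wider pathway was read from 105 other exocytosis genes. In all 4 libraries 30 of 91 measured were higher in tumour cells and 6 were lower, against 26 and 0 of the 37 described above and 14.4% and 7.29% of all genes. The 6 were Stxbp6, Snap23, Sytl2, Sytl3, Unc13d and Bin1, among them SNAP23 and MUNC13-4, the forms used by blood and epithelial cells. In the lung pair 1 of 75 was higher (Sytl1, at 27.0 and 42.2 CPM) and 5 were lower (Syt2, Rab27b, Ppfia4, Amph and Cacna1e); Sytl1, Ppfia4, Amph and Cacna1e are named after their values were seen. Of all genes, 3.16% were higher and 3.98% lower there. In the allografts 10 were higher and 32 lower of 79, with a median log2 ratio of -0.37, against 17.5% and 27.2% of all genes and a median of -0.13. Syt2 and Rab27b were lower in the second library of both pairs. Syt2, a fast calcium sensor, was at 49.6, 28.8, 98.3 and 49.2 CPM. Rab27b, a granule docking GTPase, was at 96.1, 58.2, 120 and 13.2 CPM.

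Among the highest of these other genes in tumour cells was Clta (clathrin light chain A), at 341 to 403 CPM. Cltb reached 242 CPM in RPR2, and Cacna2d1, an auxiliary calcium channel subunit, 244, 951 and 406 CPM in the other libraries. In non-tumour cells these genes included Clta at 245 to 429 CPM and, outside preSC_WT, Vamp8 at 163, 363 and 181 CPM and Picalm at 96.9, 96.8 and 266 CPM. Vamp8, the SNARE of epithelial and blood cell granules, was 21.0-fold lower in preSC_CracdKO than in preSC_WT tumour cells (4.45 against 93.3 CPM). In preSC_WT non-tumour cells Cacna2d1 was at 282 CPM.

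The regulators of neuronal secretory genes set these levels in context. Rest was at 0.851, 0.823, 0.101 and 0.526 CPM in tumour cells (19, 22, 8 and 46 UMIs) and at 80.4, 41.9, 27.6 and 40.3 CPM in non-tumour cells, the only regulator lower in tumour cells in all 4 libraries. Srrm4 and Srrm3, splicing factors that in neurons shift Rest to an inactive isoform, were at 53.7, 53.5, 111 and 75.4 CPM and at 101, 80.3, 133 and 99.4 CPM. Insm1, which codes for a neuroendocrine repressor, was at 221, 194, 253 and 107 CPM. St18 and Myt1, neuronal zinc finger genes, were at 111, 103, 217 and 170 CPM and at 22.5, 21.9, 62.9 and 51.2 CPM. Their relative Myt1l was at 0.985, 1.16, 6.77 and 103 CPM. The REST partners Rcor1 and Rcor2 were at 56.3, 54.4, 89.4 and 45.7 CPM and at 10.3, 7.07, 14.3 and 26.3 CPM. Neurod1 had 0, 0, 143 and 231 UMIs, and Isl1 was at 0, 0, 0.0126 and 93.2 CPM. Between the allografts the regulators went both ways. Of 10 measured, 3 were higher in preSC_CracdKO (Isl1, Myt1l and Rcor2) and 4 lay within 1.5-fold. The 3 lower ones included Insm1 (2.37-fold) and Rcor1. Of the members 17 were lower and 6 higher, where 27.2% and 17.5% of all genes were. Equal weight of shared clusters gave 5 lower and 15 higher members. Whether regulators and members go together was not tested.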

How the data were processed

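The deposited files are counts: UMIs per gene and cell from 10x Genomics libraries, summarised by the authors with Cell Ranger against mm10, per the submitters' processing notes (6.1.2) and per the file headers (6.1.2 for lung, 5.0.0 for allografts). Cells needed 300 detected genes and a mitochondrial share of at most 15%. Scrublet in scanpy 1.11.5 marked 259 and 357 doublets in RPR2 and preSC_WT; where its own threshold marked under 0.5% of cells, the top scores were removed at 0.8% per 1000 barcodes (1164 in CRPR2, 2102 in preSC_CracdKO). Each pair was clustered on 2000 variable genes, 50 components and Leiden resolution 1.0, without members or mitochondrial genes. A rule on marker lists, set after the clusters were seen, named the classes ("like"): a tumour cluster had no non-tumour name and lay within 2-fold of the pooled candidates over 31 tumour markers. UMIs were summed per class and divided by the class total (CPM); intervals are exact Poisson, conditional binomial or Clopper-Pearson. The calculation of ratios and intervals was run on simulated Poisson counts with known fold changes. Such counts hold no variation between animals or cells, so this checks the calculation only. All 38 members are named, with values per library at 5 CPM or more in 1 library; other exocytosis genes are named when past 1.5-fold in both pairs or among the highest 3 in a class, and so are the REST regulators; items these rules take in that are withheld are not reported here. The members and lists were chosen with earlier results of these data known. The alternatives used edgeR 4.0.16 in R 4.3.3, other thresholds, clusterings and cell filters.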

Additional observations from a re-analysis of the deposited data

How the results depend on the processing

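No paired analysis was possible because each group was 1 library. Over all alternatives, 106 of the counts stayed within 1.5 times the reported one and 12 moved, and for single members 168 ratios stayed, 76 moved and 6 reversed. In the lung pair the count of lower members was 3 with no minimum CPM, 0 at 20 CPM and 4 with unnamed clusters counted as tumour (chosen after seeing the data, as were leaving out libraries, T cells and cells in the other library's clusters); the count of higher members was 0 at 2-fold, 3 after thinning and 0 with unnamed clusters as tumour, where the median log2 ratio was -0.30. In the allografts a 2-fold rule gave 3 higher and 11 lower, and equal weight of shared clusters gave 15 higher and 5 lower, with a median log2 ratio of 0.19. Under that weighting the allograft ratio changed side for Snap25 (1.01), Vamp1 (1.56), Cplx1 (0.859), Rab3c (1.19), Rims1 (1.15) and Dnm1 (3.23). The count higher in both lung tumours was 2 at 20 CPM and 11 without preSC_WT. The cause was not tested. The count of 26 members higher in all 4 libraries ranged from 19 to 29. Except for equal weight of shared clusters, these counts are given without the share over all genes under the same setting. They show only how a count depends on the setting. Depth limits the low members: among 135 values of at least 5 CPM the widest interval spans 1.43-fold, and below that the intervals of Sv2c, Cplx1 and Rph3a are wider.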
